A study of Homo sapiens with 12 samples.

Results

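The comparison described here sets H1650 against A549 while both lung cancer cell lines over-express the splicing factor SRSF2. Its members are the 3 H1650 and 3 A549 libraries labelled as SRSF2 over-expressing, 6 of the 12 libraries of the series, and every gene of the raw count table. The other 6 libraries, 3 per line, are untreated by their labels, although their titles carry the letters NC, which the labels do not explain. They give the line difference without SRSF2, against which each gene's difference was said to remain, widen, narrow, open, close or reverse. Polyadenylated RNA was sequenced in all 12 libraries. The construct, its promoter, the time of expression, and whether each line is 1 clone or a pool are not given in the sources used here. Nor do they say whether the 3 libraries of a group come from separate cultures. The p-values therefore rest on how much these libraries vary, which may be technical variation alone.

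SRSF2 is a member of the SR family, nuclear proteins with an RNA recognition motif and an arginine and serine rich tail that bind exons and guide the choice of splice sites. A549 is an established human lung adenocarcinoma line known for mutated KEAP1, STK11 and SMARCA4. H1650 is an established human lung adenocarcinoma line known for mutated EGFR. KEAP1 normally holds the transcription factor NRF2 in check, and cells without working KEAP1 are known for high expression of NRF2 targets. Levels of SRSF2 itself were not analysed here, so the degree of over-expression in each line has no value here.

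Total counts of the 6 SRSF2 libraries ran from 23876899 to 32079027. Levels below are CPM, counts brought to a common library total after TMM correction, and compare 1 gene between libraries, not genes with each other. Over the 6 SRSF2 libraries, the lines lay apart on principal component 1 (95.8% of variance). Component 2 (1.25%) set H1650 SRSF2 replicate 1 (26.3) apart from replicates 2 and 3 (-9.92 and -16.6). Variation between replicates beyond counting, as edgeR's common coefficient, was 0.056 for H1650 SRSF2 and 0.0342 for A549 SRSF2 libraries. All 6 epithelial markers (EPCAM, CDH1, KRT7, KRT8, KRT18 and KRT19) had counts in every group, and summed to 9325 to 9843 CPM in H1650 SRSF2 and 9498 to 9575 CPM in A549 SRSF2 libraries. Of the markers of other cells, 3 of 11 leukocyte, 3 of 10 fibroblast, 2 of 9 endothelial and 1 of 8 erythroid genes are in the table. The summed fibroblast markers (COL1A1, COL3A1 and FBLN1) were at 248 to 264 CPM in H1650 SRSF2 and 70.2 to 74.3 CPM in A549 SRSF2 libraries, the leukocyte markers (CD14, ITGAM and NKG7) at 0.811 to 1.42 and 13.2 to 14 CPM. Among the genes of the table, the fewest A549 libraries with a read is 4 of 6, while 136 genes have none in any H1650 library. Genes on in H1650 alone may therefore be under-represented, which bears on every count of genes by direction.

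With SRSF2 in both lines, 13472 of 15991 tested genes differed between the lines (84.2%). H1650 was higher for 6480 of them (40.5% of genes tested) and A549 for 6992 (43.7%). The difference reached 1 on the log2 scale for 6802 genes (42.5%), 3208 higher in H1650 (20.1%) and 3594 higher in A549 (22.5%). It reached 3 for 1778 genes (11.1%), of which 1138 were higher in A549 (7.12%). The untreated lines differed at 13182 genes (82.4%), 6411 higher in H1650 (40.1%) and 6771 in A549 (42.3%), with 6293 past 1 on the log2 scale (39.4%). Here and below, a gene differed where edgeR's quasi-likelihood test gave a Benjamini-Hochberg adjusted p under 0.05, and a log2 difference is the log2 of H1650 over A549. The median absolute log2 difference was 0.832 with SRSF2 and 0.757 without, and 8512 genes (53.2%) had the larger absolute difference with SRSF2.

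The change of the line difference, tested as an interaction, passed for 7601 genes (47.5%). The H1650 over A549 ratio went up for 3758 (23.5%) and down for 3843 (24%), and 1480 genes changed by 1 or more on the log2 scale (9.26%). With plain library totals in place of TMM, the median of all genes moved by -0.115 for the SRSF2 line difference and by -0.075 for its change, and the calls became 3102 up and 4668 down. The split by direction therefore rests on the scaling. Without H1650 SRSF2 replicate 1, 13321 genes differed between the SRSF2 lines and 7391 changed.

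Combining these 3 tests, 6044 line differences remained (37.8% of genes tested), meaning that the lines differed in the same direction in both conditions and no change was detected. Another 2953 widened (18.5%), 2266 narrowed (14.2%), 931 opened (5.82%), 741 closed (4.63%) and 673 reversed (4.21%). A closed difference is one that was detected in untreated cells, changed, and was no longer detected with SRSF2. A further 1110 genes (6.94%) were called in some of the tests and belong to none of these classes, and 1273 (7.96%) differed in neither condition. Widened differences lay on the H1650 side for 1548 genes (9.68%) and on the A549 side for 1405 (8.79%). Of the 6802 differences of 1 or more with SRSF2, 5184 (76.2%) were as large in the same direction in untreated cells, which is 82.4% of the untreated ones, and 17 were as large in the opposite direction. Differences that remained had a median absolute value of 1.20 with SRSF2. It was 1.29 for widened, 0.76 for narrowed, 0.60 for opened, 0.33 for reversed and 0.07 for closed ones. The class definitions bear on these values, since a closed difference is by definition not detected with SRSF2. Remaining does not mean equal: 437 of these genes had an estimated change of 1 or more on the log2 scale that the test did not call. Of the 437, 405 were on the A549 side. Comparing the shift of each line between its own conditions, H1650 shifted further for 87% of widened, 78.3% of narrowed, 85.4% of opened, 82.3% of closed and 90% of reversed genes, and for 61.1% of those that remained. It also did so for 65.6% of the genes in none of these classes and 60.9% of those that differed in neither condition. H1650 thus shifted further for most genes of every class. The shares were 78.3% to 90% in classes that require a called change and 60.9% to 65.6% in the others. Replicates of H1650 SRSF2 also varied more (common coefficient 0.056, against 0.0342 for A549 SRSF2), and the part of this in the shares was not tested. The comparisons share the SRSF2 libraries and their fit, so these shares describe the genes and are not a test.

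**Figure D1:**
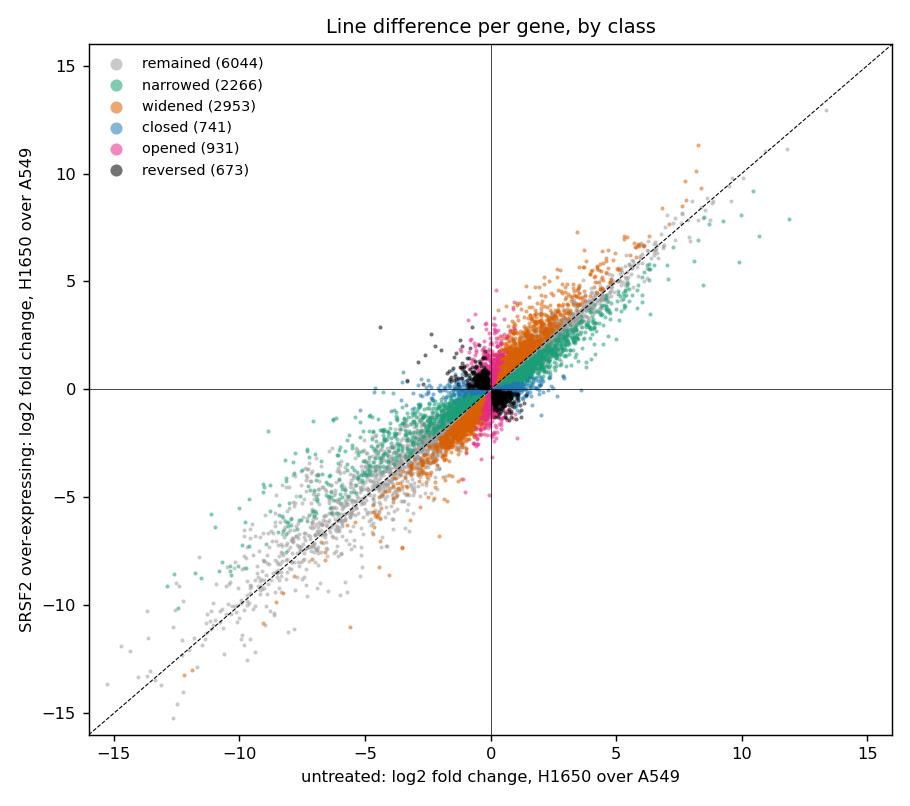
Line difference of each tested gene (log2 of H1650 over A549) in untreated cells (horizontal axis) and in SRSF2 over-expressing cells (vertical axis), coloured by class with the number of genes in each. Most of the 6044 remaining differences lie along the dashed line of equal difference out to both ends, but 437 lie 1 or more on the log2 scale off it. The 931 opened genes lie along the vertical and the 741 closed genes along the horizontal zero line, and the 673 reversed genes fall in the opposite quadrants.

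Many cell surface and junction genes were higher in H1650. Among 33 tested epithelial junction and adhesion genes, 28 were higher in H1650 with SRSF2 (40.5% of all genes) and 4 in A549. Their median log2 difference was 3.53, against 2.94 in untreated cells and -0.06 over all genes. CDH3, the gene of P-cadherin (chr16:68636189-68722616 on GRCh38), was at 1350.0, 1364 and 1389 CPM in the 3 H1650 SRSF2 libraries and at 0.736, 0.695 and 0.353 CPM in the 3 A549 SRSF2 libraries. H1650 was high and A549 close to the limit of detection in every library, with a log2 difference of 11.15 (edgeR adjusted p = 6.76e-43). The difference remained (untreated 11.79), but its change passed the test without A549 SRSF2 replicate 3 (-0.89) or A549 untreated replicate 2 (-0.95).

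Other genes of the epithelial surface behaved alike. ST14, the membrane protease matriptase, was at 709.6, 774 and 799.8 against 0.613, 0.243 and 0.235 CPM, and its inhibitor SPINT1 at 496, 522 and 514 against 0.450, 0.765 and 0.471 CPM. Protease and inhibitor were thus both high in H1650 and near 0 in A549, with log2 differences of 11.04 and 9.79 that did not change detectably (10.91 and 10.06 in untreated cells). S100A14, a calcium binding protein of epithelia, remained as well, at a mean of 215 ± 3.14 CPM (SD, n = 3) in H1650 and 0.240 ± 0.115 CPM in A549.

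A second set of junction genes differed more with SRSF2 than without. Of 33 differences, 13 widened on the H1650 side (9.68% of all genes), among them CDH1, CLDN1, CLDN4, DSP, JUP and SPINT2. CDH1 (E-cadherin, the adhesion molecule of adherens junctions) was at 1269, 1183 and 1239.5 CPM in H1650 and 25, 25.7 and 28.1 CPM in A549, with no overlap. Its log2 difference of 5.55 ± 0.051 (SE) compared with 5.10 untreated (change 0.45 ± 0.067, edgeR adjusted p = 7.94e-07). CLDN4, a tight junction claudin, was at 1024, 1068 and 1044 against 5.56, 4.66 and 5.57 CPM. DSG2, a desmosomal cadherin, went the other way, from a log2 difference of 2.57 untreated to 2.01 with SRSF2. ELF3, an epithelial transcription factor, closed: A549 was at 69.1 and H1650 at 30.9 CPM untreated, and the SRSF2 libraries overlapped, at 57.3, 56.1 and 56.8 and 59.1, 53.2 and 51.8 CPM. With plain library totals the ELF3 difference with SRSF2 was called on the A549 side (-0.171), which would make it narrowed.

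Keratins, the intermediate filament proteins of epithelia, did not share a direction. Of 12 tested, 5 were higher in H1650 and 6 in A549 with SRSF2, near the shares of all genes (40.5% and 43.7%). KRT16, a keratin of stressed and hyperproliferative epithelium, had the largest difference, at 1525, 1525 and 1520.4 CPM in H1650 and 1.80, 1.43 and 0.903 CPM in A549. H1650 was the higher line in every library, and the log2 difference of 10.11 had widened from 8.17. KRT19 narrowed, from 1304 ± 5.60 CPM in untreated H1650 to 625 ± 22 CPM in H1650 SRSF2 against 121 ± 5.09 CPM in A549 SRSF2 libraries, a log2 difference of 2.37 where it had been 3.74. KRT8, a keratin of simple epithelia, closed: the SRSF2 libraries were at 4359.7, 4502 and 4625 CPM in H1650 and 4484, 4548 and 4469 CPM in A549, which overlapped. Its partner KRT18 narrowed but stayed higher in A549, with a log2 difference of -0.31 ± 0.034, and KRT7 remained higher in A549 at -0.52 ± 0.030. With plain library totals the SRSF2 difference of KRT8 was called (-0.117), which would make it narrowed, and so was the change of KRT7 (-0.107).

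Of 20 tested lung and secretory lineage genes, 13 were higher in A549 (43.7% of all genes) and 6 in H1650 (40.5%), with a median log2 difference of -3.07 (-2.93 untreated). MUC5AC, a secreted airway mucin, was at 159.5, 164 and 184 CPM in A549 and 0, 0.0746 and 0.131 CPM in H1650 SRSF2 libraries. FOXA2, a forkhead factor of lung and liver lineage, was at 35.8 ± 2.19 CPM in A549 and 0.0615 CPM in H1650, and HNF4A, a factor of gut and liver lineage, at 37.6 ± 1.05 and 0.137 CPM. All 3 genes were near 0 in H1650 in both conditions and their differences remained. On the H1650 side, LAMP3, a lysosomal protein also known from alveolar type II cells, was at 249.9, 258 and 292 CPM against 0.981, 1.01 and 1.26 CPM, and its log2 difference of 7.94 did not change detectably although both lines had higher levels with SRSF2 (59.5 and 0.360 CPM untreated). MUC4, a membrane mucin, opened: untreated means were 0.821 and 0.730 CPM, and the SRSF2 libraries were at 7.21, 6.34 and 6.49 CPM in H1650 and 0.695, 0.800 and 1.06 CPM in A549. SLPI, a secreted protease inhibitor, widened, at 417 ± 34.8 against 8.64 ± 0.400 CPM.

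Of 27 mesenchymal genes, 15 were higher in H1650 (40.5% of all genes) and 12 in A549 (43.7%), the latter near the share of all genes. SPARC, a matrix glycoprotein, was at 669.8, 649 and 673 CPM in H1650 and 0.531, 1.15 and 1.18 CPM in A549, and TNC, the matrix protein tenascin C, at 1187 ± 93.9 and 4.79 ± 0.994 CPM. VIM, the intermediate filament of mesenchymal cells, was higher in A549, at 566, 527 and 520.4 against 102, 98.6 and 86.5 CPM. The A549 side of VIM narrowed from a log2 difference of -3.10 to -2.49 ± 0.048. FN1 (fibronectin) reversed: A549 was at 1339 and H1650 at 672 CPM untreated, while the SRSF2 libraries were at 872, 937 and 1059.6 and 1641, 1526 and 1668 CPM, so that every H1650 library lay above every A549 library.

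The A549 side of the comparison was led by enzymes of redox and aldehyde metabolism. Of 28 tested NRF2 targets, 26 were higher in A549 with SRSF2 (43.7% of all genes), with a median log2 difference of -2.66 (-2.61 untreated). Of 20 aldehyde and drug metabolism genes, 17 were higher in A549 (43.7% of all genes) and 2 in H1650 (40.5%), with a median of -6.62 (-6.24 untreated). ALDH1A1, a retinaldehyde dehydrogenase (chr9:72900662-73080442), was at 5941, 5995 and 5948 CPM in A549 and 0.637, 0.746 and 0.685 CPM in H1650. ALDH3A1, which oxidises aromatic and fatty aldehydes, was at 1782, 1897 and 1954 against 0.239, 0.149 and 0.163 CPM. Both were high in all A549 and under 1 CPM in all H1650 libraries, with log2 differences of -13.07 and -13.30 and no detected change.

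Several of these differences widened, with lower H1650 levels in the SRSF2 libraries. AKR1B10, an aldo-keto reductase, was at 3695, 3707 and 3615 CPM in A549 and 0.239, 0.336 and 0.522 CPM in H1650, where untreated H1650 had 0.771, 1.14 and 0.828 CPM. AKR1C3, a steroid and prostaglandin reductase, was at 1434 ± 13.1 CPM in A549 and 1.57 ± 0.245 CPM in H1650 SRSF2, against 4.50 ± 0.528 CPM in untreated H1650 libraries. The H1650 libraries of both genes did not overlap between conditions, and the log2 difference of AKR1C3 went from -8.53 to -9.84. Of the NRF2 targets 13 widened on the A549 side (8.79% of all genes). On the same side 6 narrowed and 7 remained, where 14.2% and 37.8% of all genes did on either side. TXNRD1 (thioredoxin reductase) widened to -3.30 ± 0.032 and TKT (transketolase) to -2.61 ± 0.034. SLC7A11, the cystine transporter, remained at -2.66 ± 0.056, and FTL, the ferritin light chain, narrowed from -5.37 to -4.80 ± 0.036. CYP24A1, the vitamin D hydroxylase, also narrowed, from a log2 difference of -9.63 to -7.26, with 6.13, 8.47 and 11.5 CPM in H1650 and 1280.4, 1362 and 1415 CPM in A549 SRSF2 libraries.

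Some A549 genes had no read or almost none in H1650. With SRSF2, 137 genes outside chromosome Y were at 0 in all H1650 libraries and above the floor of 3 counts in A549. Of these, 22 were at 5 CPM or more in A549. Untreated, the numbers were 192 and 22. Every gene counted here had a read in at least 4 A549 libraries, so the reverse, genes at 0 in A549, could not be counted. Which line has more such genes therefore cannot be told from these numbers. EDA2R, an ectodysplasin receptor, was at 56.8, 59.8 and 57.4 CPM in A549 and at 0 in all 3 H1650 libraries. Counting 3 reads over the H1650 group as the floor, it was at least 1596-fold higher in A549. HAVCR1, the surface protein known as kidney injury molecule, was at 105, 111 and 109.7 CPM in A549 and at 0, at least 2982-fold higher. Both genes were at or next to 0 in untreated H1650 too. GSTP1, a glutathione transferase, was at 511, 519 and 537 CPM in A549 and 0, 0.0746 and 0.0326 CPM in H1650.

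Several genes known to be mutated in these lines differed by smaller amounts, and counts per gene do not show variants. SMARCA4, an ATPase of chromatin remodelling complexes, was at 229, 222 and 212 CPM in H1650 and 44.5, 46.5 and 48.8 CPM in A549. H1650 was higher in every library, but the log2 difference of 2.25 ± 0.049 was smaller than the untreated 3.07. EGFR narrowed from 0.69 to 0.26 ± 0.039, at 919.8, 794 and 822 CPM in H1650 and 713, 706 and 695 CPM in A549. KEAP1 (-0.43) and STK11 (-0.68) remained higher in A549. For NFE2L2, the gene of NRF2 itself, the log2 difference was 0.12 ± 0.039 with SRSF2 and 0.01 untreated. With plain library totals the SRSF2 difference was 0.00 for NFE2L2. The call of these small changes depended on the method and on single libraries. The KEAP1 change (-0.13) was called with plain library totals (-0.209), voom (-0.133), a mean of at least 1 CPM (-0.144) and no filter (-0.144), and that of STK11 with plain library totals (-0.164). KEAP1 was also called, at -0.155 to -0.159, without any one of A549 SRSF2 replicate 1, A549 untreated replicate 3, H1650 SRSF2 replicate 3 and H1650 untreated replicates 1 and 2. Without H1650 SRSF2 replicate 3, NFE2L2 was called as changed (0.137).

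**Figure D2:**
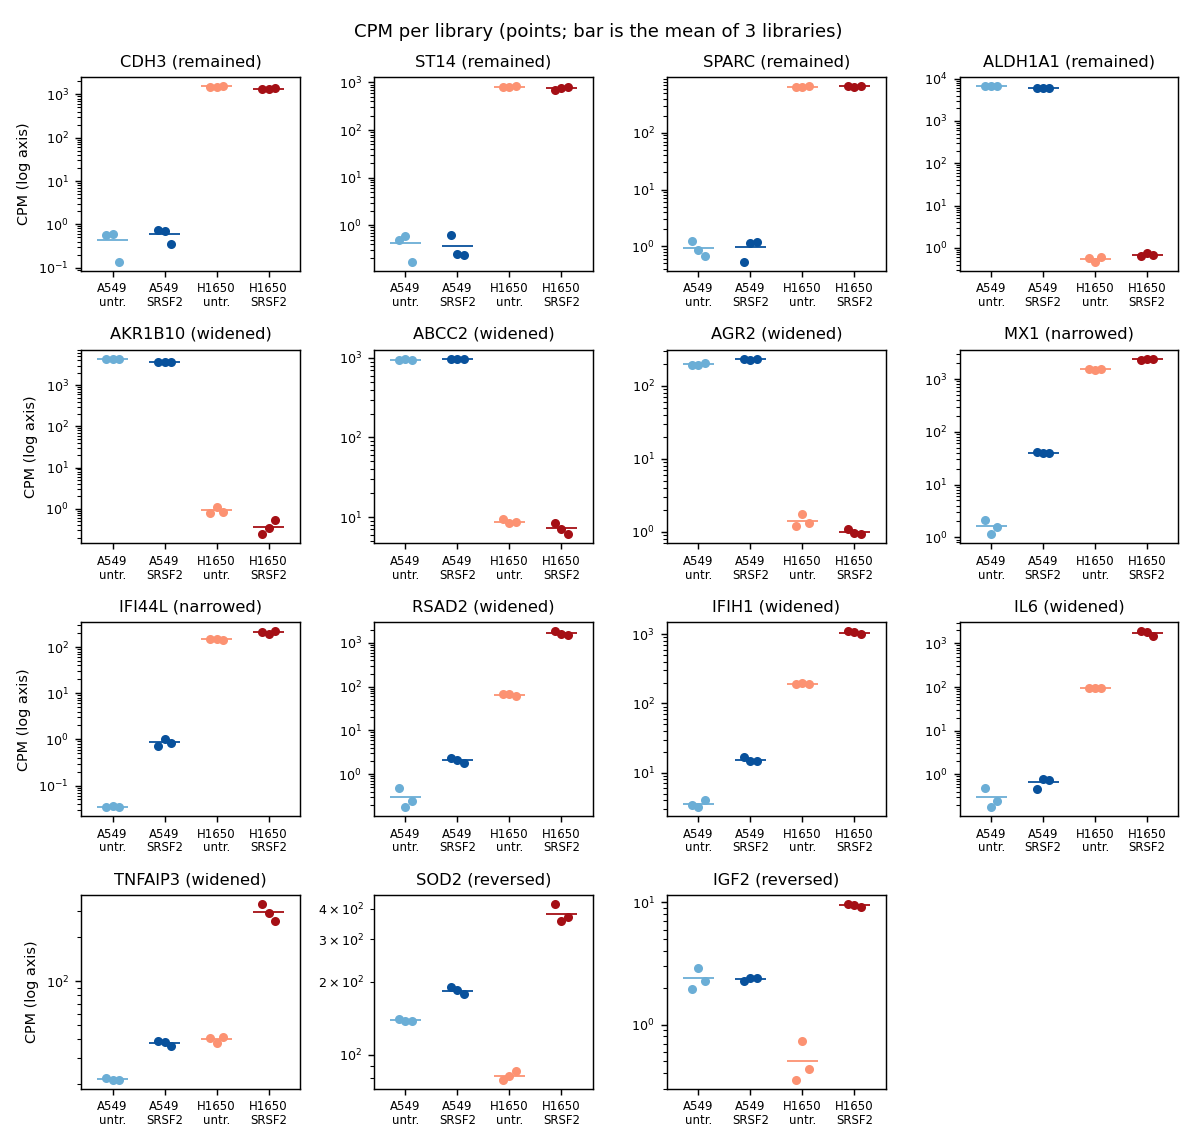
CPM of 15 genes in each of the 12 libraries (points; bar, mean of 3; log axis, a library at 0 is not drawn), by line and condition, with each gene's class. CDH3, ST14 and SPARC separate the lines alike in both conditions, MX1 and IFI44L draw closer with SRSF2, and the IGF2 and SOD2 libraries of the lines change places. In untreated A549 libraries IFI44L lies below the CPM of 3 counts.

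Interferon response genes are induced when interferon receptors signal to the factor ISGF3, which binds interferon-stimulated response elements in their promoters. Their products block viral replication at many steps. Of 41 tested, 40 were higher in H1650 with SRSF2 (40.5% of all genes) and 1, IRF7, in A549, with a median log2 difference of 4.02 (4.17 untreated). The libraries of the lines did not overlap for any of the 41 in either condition, where 84% of all genes did not overlap with SRSF2 and 84% untreated. The line difference of the list did not move as one: 21 narrowed (14.2% of all genes), 11 widened on the H1650 side (9.68%), 6 remained (37.8%), 1 opened and 1 reversed. The H1650 over A549 ratio went up for 13 (23.5% of all genes) and down for 22 (24%).

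MX1, a dynamin-like GTPase that blocks influenza and other viruses, had one of the largest narrowings of the list. Untreated A549 had 2.13, 1.13 and 1.57 CPM and untreated H1650 1537, 1477 and 1553 CPM. With SRSF2, A549 was at 40.7, 39.7 and 38.8 CPM and H1650 at 2321, 2401 and 2437 CPM. Both lines were higher with SRSF2 and H1650 stayed above A549 in every library, but the log2 difference went from 9.88 to 5.91 ± 0.049 (change -3.97, edgeR adjusted p = 1.58e-25). IFI44L, an interferon-induced gene of the same list, was at 0.0349, 0.0353 and 0.0341 CPM in untreated and 0.736, 1.04 and 0.824 CPM in SRSF2 A549 libraries, against 147 ± 1.85 and 208 ± 11.7 CPM in H1650. The untreated A549 values of IFI44L lie below the CPM of 3 counts in those libraries (0.108, 0.109 and 0.105), so the size of its narrowing is uncertain. XAF1, a pro-apoptotic interferon target, was at 2.7, 2.26 and 1.73 CPM in A549 SRSF2 and 292, 299 and 329.8 CPM in H1650 SRSF2 libraries, with a log2 difference of 7.11 where it had been 10.70. ISG15, a ubiquitin-like modifier, narrowed less, from 7.28 to 6.58 ± 0.054, at 2160.0 ± 97.8 against 22.7 ± 0.953 CPM.

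The widened interferon genes included sensors and effectors of RNA viruses. RSAD2 (viperin, which makes a chain-terminating nucleotide) was at 67.5, 67.2 and 61.5 CPM in untreated and 1846, 1620.5 and 1532 CPM in SRSF2 H1650 libraries, and at 0.488, 0.177 and 0.238 and 2.33, 2.12 and 1.77 CPM in A549. Its log2 difference went from 7.74 to 9.65. IFIH1, the double-stranded RNA sensor MDA5, was at 1106, 1066 and 1004 CPM in H1650 SRSF2 and 16.6, 14.6 and 14.8 CPM in A549 SRSF2 libraries. Both lines had lower levels untreated (194 and 3.52 CPM), so the difference of 6.11 ± 0.054 exceeded the untreated one by only 0.33 ± 0.10, and by 0.22, no longer past the test, without A549 untreated replicate 3. ISG20, an RNA exonuclease, was at 381, 397 and 361 against 22.5, 22.4 and 25.3 CPM, and HERC5, the ligase that attaches ISG15, at 831 ± 28.5 against 16.4 ± 0.832 CPM. ISG20 was among the largest widenings of the list, from 1.18 to 4.02 ± 0.052 (change 2.84 ± 0.083). OASL, an OAS-like protein that boosts RNA sensing, remained: H1650 went from a mean of 242 to 3104 CPM and A549 from 0.719 to 8.89 CPM, with log2 differences of 8.39 and 8.44. ZC3HAV1, the zinc finger antiviral protein that binds CpG-rich RNA and stands outside the list, had the largest widening on the H1650 side among genes at 5 CPM or more whose lines did not overlap. It was at 2523, 2072 and 1968 CPM in H1650 and 164, 172 and 169.5 CPM in A549, a log2 difference of 3.69 ± 0.059 against 0.28 untreated.

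The promoters of 5 of these genes are shown because they hold the core of the interferon-stimulated response element and because their line differences went different ways. They were chosen for holding it, and B2M belongs to the class I list described below. A script searched RefSeq promoters, from 250 bases before to 50 after the start, for the element's core of GAAA, any 2 bases and GAAA again, on both strands, allowing overlaps. The core was found in 20 of 33 interferon response genes with a promoter sequence (60.6%) and in 296 of 11242 tested genes (2.63%). It was found in 10 of 18 narrowed, 5 of 10 widened and 4 of 4 remaining members. Each line below runs 5′ to 3′ on the gene's strand, 250 bases before to 30 after the start, GRCh38.p14, and capitals mark the core, which on IFIH1 reads in part as its complement.
MX1 (narrowed), chr21:41420308-41420587, plus strand: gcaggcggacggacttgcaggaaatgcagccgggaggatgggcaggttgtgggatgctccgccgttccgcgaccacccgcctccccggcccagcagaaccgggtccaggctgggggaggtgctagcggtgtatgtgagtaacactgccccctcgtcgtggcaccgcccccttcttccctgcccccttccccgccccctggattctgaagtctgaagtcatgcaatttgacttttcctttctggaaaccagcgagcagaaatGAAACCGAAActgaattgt
IFI44L (narrowed), chr1:78620198-78620477, plus strand: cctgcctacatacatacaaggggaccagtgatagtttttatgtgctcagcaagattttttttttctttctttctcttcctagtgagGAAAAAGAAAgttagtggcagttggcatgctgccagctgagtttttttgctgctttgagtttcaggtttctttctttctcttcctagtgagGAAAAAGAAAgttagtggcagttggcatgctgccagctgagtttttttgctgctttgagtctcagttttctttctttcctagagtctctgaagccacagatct
IFIH1 (widened), chr2:162318655-162318934, minus strand: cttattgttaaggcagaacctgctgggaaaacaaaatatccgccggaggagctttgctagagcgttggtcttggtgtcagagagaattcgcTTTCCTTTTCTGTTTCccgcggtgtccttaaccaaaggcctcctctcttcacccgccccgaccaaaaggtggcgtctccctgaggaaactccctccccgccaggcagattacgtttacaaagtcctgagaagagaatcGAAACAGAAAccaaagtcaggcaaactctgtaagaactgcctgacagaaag
ISG20 (widened), chr15:88638766-88639045, plus strand: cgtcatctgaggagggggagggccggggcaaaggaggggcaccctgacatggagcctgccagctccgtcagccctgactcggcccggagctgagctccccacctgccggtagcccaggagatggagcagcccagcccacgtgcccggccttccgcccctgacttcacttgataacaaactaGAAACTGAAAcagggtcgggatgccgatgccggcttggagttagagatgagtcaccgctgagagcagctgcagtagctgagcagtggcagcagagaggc
B2M (widened, class I antigen presentation), chr15:44711267-44711546, plus strand: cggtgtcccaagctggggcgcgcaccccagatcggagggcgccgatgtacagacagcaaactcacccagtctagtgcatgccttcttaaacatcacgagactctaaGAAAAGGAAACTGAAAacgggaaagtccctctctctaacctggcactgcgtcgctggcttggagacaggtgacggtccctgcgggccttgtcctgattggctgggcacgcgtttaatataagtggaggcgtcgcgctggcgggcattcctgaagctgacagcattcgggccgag

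In MX1 the core lies after the start, from base 12 of the transcript. IFI44L holds 2 copies with the same letters, 164 and 73 bases before the start. IFIH1 holds 3, of which the overlapping pair 159 and 153 bases before the start reads on the other strand. ISG20 has 1 core 69 bases before the start, and B2M an overlapping pair beginning 144 and 138 bases before it. A match to these letters is a description of the window and shows no binding in either line.

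Among interferon receptors and signalling genes, 10 of 19 were higher in H1650 (40.5% of all genes) and 6 in A549 (43.7%). IRF7, the factor that amplifies interferon production, was counted in the interferon response list and was its only member higher in A549 with SRSF2. It was at 18.1, 16.4 and 19.2 CPM in A549 and 0.398, 0.522 and 0.652 CPM in H1650, and its A549 side difference widened from -1.87 to -5.06. STING1, an adaptor of cytosolic DNA sensing, was at 139, 155 and 159 CPM in H1650 and 0.981, 1.60 and 1.96 CPM in A549. Its widening (0.70) did not pass the test without A549 SRSF2 replicate 1 (0.49), A549 untreated replicate 1 (0.52) or A549 untreated replicate 3 (0.68). IRF1 widened from a log2 difference of 0.58 to 1.88 ± 0.054. IFNAR2, a chain of the type I interferon receptor, was higher in A549, at 23.7 ± 1.87 against 7.42 ± 0.404 CPM.

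Class I molecules show peptides from inside the cell to CD8 T cells, and most of their genes and loading factors differed more with SRSF2 than without. Of 18 tested genes, 16 were higher in H1650 (40.5% of all genes) and 2 in A549 (43.7%). Of the same genes 12 widened on the H1650 side (9.68% of all genes), and the median log2 difference was 2.82 against 2.15 untreated. B2M, the invariant light chain of class I molecules, was at 3305, 3387 and 3330.2 CPM in H1650 and 222, 218 and 222 CPM in A549 SRSF2 libraries. Untreated means were 1209 and 190.1 CPM, so that the difference went from 2.67 to 3.92 ± 0.035 with no overlap of libraries. HLA-B was at 943, 1032 and 1006 against 8.91, 9.87 and 8.20 CPM and HLA-E, the ligand of the NKG2A receptor, at 707 ± 23.8 against 80.7 ± 3.22 CPM. Reads from the closely related HLA genes, and from alleles that differ from the reference, can be lost or shared in counting, so levels of single HLA genes are uncertain. The core of the interferon-stimulated response element was found in 7 of 14 promoters of the list (2.63% of tested genes).

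Ligands that engage T and NK cell receptors followed the same side. Of 15 immune checkpoint and stress ligands, 12 were higher in H1650 (40.5% of all genes) and 2 in A549 (43.7%). The ratio went up for 12 (23.5% of all genes) and down for 1 (24%). CD274, the ligand of PD-1, was at 70.2, 67.5 and 67.1 CPM in H1650 and 1.15, 1.18 and 0.864 CPM in A549. ULBP2, a ligand of the NKG2D receptor, was at 86.4, 86.5 and 78.3 against 2.37, 2.02 and 1.88 CPM, and CD276 (B7-H3) at 719 ± 11.7 against 66.3 ± 4.13 CPM. All 3 differences widened. VTCN1 (B7-H4) narrowed: H1650 had 41.5, 42.4 and 37.5 CPM untreated and 8.88, 10.4 and 10.3 CPM with SRSF2, against 0.874 ± 0.126 CPM in A549 SRSF2 libraries.

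NF-kB is a family of factors held in the cytoplasm by IκB proteins and released by cytokine and damage signals. Its targets include its own inhibitors. Of 30 tested pathway members and targets, 18 were higher in H1650 (40.5% of all genes) and 9 in A549 (43.7%) with SRSF2. Untreated, 8 and 16 were (40.1% and 42.3% of all genes). The median log2 difference was 0.49 with SRSF2 and -0.31 untreated, and the ratio went up for 21 (23.5% of all genes) and down for 2. TNFAIP3, the inhibitor A20, was at 335, 290.2 and 258 CPM in H1650 and 39, 38.5 and 36.2 CPM in A549. Its libraries did not overlap, and the log2 difference of 2.96 ± 0.063 compared with 0.91 untreated (edgeR adjusted p of the change = 2.00e-18). SOD2, the mitochondrial superoxide dismutase, reversed: A549 was higher untreated (139 against 82.2 CPM), and the SRSF2 libraries were at 419, 356 and 370.2 CPM in H1650 and 189.8, 184 and 178 CPM in A549. TNIP1, an A20 partner, reversed too, from -0.52 to 0.61 ± 0.037. CYLD, a deubiquitinase that restrains the pathway, widened from 1.77 to 3.15 ± 0.082.

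Among 26 cytokines and chemokines, 10 were higher in H1650 and 10 in A549 with SRSF2, near the shares of all genes (40.5% and 43.7%). Untreated, 7 and 17 were (40.1% and 42.3% of all genes). Between conditions, 17 ratios went up (23.5% of all genes) and 1 down (24%). The median log2 difference was -0.01 with SRSF2 and -1.89 untreated. IL6 (chr7:22725884-22732002), which signals through gp130 and STAT3, had the widest H1650 side. It was at 1901, 1817 and 1486 CPM in H1650 SRSF2, 95.2, 93.6 and 93.5 CPM in untreated H1650 and 0.450, 0.800 and 0.746 CPM in A549 SRSF2 libraries. H1650 was the higher line in every library, with a log2 difference of 11.32 against 8.27 untreated (change 3.06, edgeR adjusted p = 1.11e-05). CXCL8, the neutrophil chemokine IL-8, closed: untreated A549 had 29.8, 31.4 and 30.9 and untreated H1650 10.9, 10.9 and 10.9 CPM, while the SRSF2 libraries were at 44.6, 49.5 and 45.6 and 48.5, 46 and 43 CPM and overlapped. CXCL2 reversed, at 36.9, 34.5 and 27.7 CPM in H1650 and 27.4, 28.5 and 28.2 CPM in A549 SRSF2 libraries. Its H1650 and A549 SRSF2 libraries nevertheless overlapped, and the log2 difference was 0.23 ± 0.077, against -2.69 untreated. That small SRSF2 difference did not pass the test without H1650 SRSF2 replicate 1 (0.15) or with plain library totals (0.115), where CXCL2 would be closed. With plain library totals the SRSF2 difference of CXCL8 was called (-0.143), which would make it narrowed. CSF1 reversed as well, to 0.32 ± 0.054 from -0.66.

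Other cytokines stayed on the A549 side. CXCL5, another neutrophil chemokine, was at 418, 407 and 397 CPM in A549 and 0.598, 0.597 and 0.131 CPM in H1650. GDF15, a stress cytokine, was at 173, 185 and 192 against 1.47, 1.49 and 2.12 CPM. Both remained, at log2 differences of -9.89 and -6.73. CCL2, a monocyte chemokine, widened on the A549 side, at 61.4, 61.4 and 51.3 against 0.358, 0.746 and 0.946 CPM, and LIF, a cytokine of the IL-6 family, narrowed from -4.50 to -2.61 ± 0.064.

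Immediate-early genes encode short-lived regulators that cells transcribe within minutes of a stimulus. Of 26 tested, 21 were higher in H1650 (40.5% of all genes) and 4 in A549 (43.7%) with SRSF2. Untreated, 14 and 7 were (40.1% and 42.3% of all genes), and 5 differences opened (5.82%). FOS, a subunit of the factor AP-1, was at 4.75, 5.02 and 5.76 CPM in A549 and 4.11, 5.09 and 4.40 CPM in H1650 untreated, which overlapped. With SRSF2 it was at 4.95, 4.73 and 6.08 CPM in A549 and 48.1, 51.2 and 33.4 CPM in H1650, a log2 difference of 3.07 ± 0.12 (change 3.26 ± 0.21, edgeR adjusted p = 4.52e-15). The orphan nuclear receptor gene NR4A2 opened in the same direction, at 70.9, 66.2 and 54.7 CPM in H1650 and 11.9, 12.1 and 12.2 CPM in A549. Every H1650 SRSF2 library of both genes lay above every other library, and replicate 3 was the lowest of the 3. KLF10, a Krüppel-like repressor, opened to 1.77 ± 0.057 and KLF4 widened from 2.00 to 4.37 ± 0.076. ARC, a synaptic immediate-early gene, was at 38.9, 44.8 and 23.3 CPM in H1650 and 0.981, 1.56 and 1.29 CPM in A549, with the same library lowest.

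EGR1, a zinc finger factor of the same class of genes, behaved otherwise. Untreated A549 had 1.01, 0.777 and 0.716 CPM and untreated H1650 13.5, 16.2 and 14.8 CPM. The SRSF2 libraries were at 21.8, 22.1 and 21 and 67.2, 73.3 and 59.2 CPM. Both lines were higher with SRSF2, A549 by more, and the log2 difference narrowed from 4.15 to 1.62 ± 0.071. NR4A1, a close relative of NR4A2, closed instead: A549 was at 46.1, 47 and 47.8 and 42, 48.7 and 44.5 CPM untreated and with SRSF2, and H1650 at 17.6, 15.7 and 18.4 and 44, 48.2 and 46.9 CPM.

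Of the 476 differences that opened on the A549 side, H1650 shifted further than A549 between its own conditions for 405 (85.1%). The share was 85.7% for those that opened on the H1650 side and 60.9% for genes that differed in neither condition. FAT1, an atypical cadherin, was at 782, 752 and 749.7 CPM in untreated and 302, 248 and 269.8 CPM in SRSF2 H1650 libraries, and at 793 ± 47.1 and 846 ± 23.4 CPM in A549. With plain library totals the untreated FAT1 difference was called at -0.10, which would make it widened. A549 and H1650 overlapped untreated and did not with SRSF2, where the log2 difference was -1.63 ± 0.048 (edgeR adjusted p of the change = 9.53e-20). SLC4A7, a sodium bicarbonate cotransporter, was at 68.1, 65.3 and 66 CPM in H1650 and 158, 155 and 151 CPM in A549. Without 1 library, the untreated SLC4A7 difference (0.08) was called in 7 of 12 cases, at 0.09 to 0.11, which would make the gene reversed, and so it was with voom (0.08) and with no filter (0.12). PPARGC1B, a coactivator of mitochondrial genes, opened to -1.19 ± 0.095, and DNAH5, an axonemal dynein, to -1.67 ± 0.11. The untreated DNAH5 difference was called at -0.27 without A549 untreated replicate 3, at -0.22 with median-ratio size factors and at -0.23 with plain library totals. On the H1650 side the largest opened differences besides FOS, MUC4 and NR4A2 included H1-4, a linker histone. It was at 12.3, 11.9 and 5.74 CPM in H1650 and 0.899, 0.556 and 0.353 CPM in A549, with replicate 3 of H1650 below the other two. Its untreated difference was called without that library (0.95) or without H1650 untreated replicate 3 (1.245 where all libraries gave 0.94).

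Among the differences that closed, the YAP target ANKRD1 had been lower in H1650. Untreated libraries were at 37.5, 31.9 and 32.2 CPM in A549 and 4.24, 4.82 and 4.50 CPM in H1650, and SRSF2 libraries at 91.2, 81 and 78.2 and 114, 102 and 69.7 CPM. The SRSF2 libraries overlapped, and the log2 difference of 0.19 ± 0.091 did not pass the test (edgeR adjusted p = 0.0591). Without H1650 SRSF2 replicate 3, the lowest of its group, it was 0.38 and passed, as it did without A549 SRSF2 replicate 1 (0.26), with voom (0.18) and with no filter (0.21). GEM, a small GTPase, closed from -1.95 to -0.05 ± 0.084, and FLT4, the receptor VEGFR3, from -3.07 to -0.18 ± 0.12. The FLT4 difference passed the test, so that it would be narrowed, without H1650 SRSF2 replicate 3 (-0.30) or with plain library totals (-0.29). In these 3 genes the H1650 means were higher with SRSF2 than untreated. Other differences closed from the H1650 side. HAS3, a hyaluronan synthase, was at 117, 109.9 and 118 CPM in untreated H1650 and 42.8, 45.5 and 39.6 CPM in H1650 SRSF2 libraries, where A549 had 46.7, 46 and 44 CPM. Its SRSF2 difference of -0.10 was called, on the A549 side, without H1650 SRSF2 replicate 2 (-0.14), with a mean of at least 1 CPM (-0.12) and with plain library totals (-0.21), which would make HAS3 reversed. ALDH1A3, a retinaldehyde dehydrogenase, was at 14.7, 14.9 and 15.3 CPM in H1650 and 14.6, 13.8 and 14.6 CPM in A549 SRSF2 libraries, against 36.8 ± 1.15 CPM in untreated H1650, and SLITRK6, a neuronal adhesion protein, at 4.02, 4.96 and 4.60 against 4.99, 4.45 and 4.51 CPM. PERM1, a regulator of muscle mitochondria, closed through A549: it was at 0.174, 0.212 and 0.307 CPM untreated and 6.09, 5.81 and 6.04 CPM with SRSF2, beside 6.01, 5.37 and 5.94 CPM in H1650. With a log2 difference of -0.03 ± 0.12 for SLITRK6 and -0.05 ± 0.14 for PERM1, smaller differences than a few SEs could not have been seen.

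Narrowing left differences of very different size. IGFBP6, an IGF-II binding protein, was at 5.14, 5.32 and 5.06 CPM in untreated H1650 and 68.4, 75.7 and 70.8 CPM in H1650 SRSF2 libraries, while A549 had 76.3 ± 1.65 and 79.8 ± 2.51 CPM. The A549 side difference went from -3.88 to -0.15 ± 0.047 (change 3.73 ± 0.082, edgeR adjusted p = 3.88e-27). GRB10, an adaptor that restrains insulin receptor signalling, was at 0.482, 0.737 and 0.596 CPM in untreated H1650, 11.4, 10.8 and 11.5 CPM in H1650 SRSF2 and 90.3, 90.4 and 91 CPM in A549 SRSF2 libraries, so A549 remained the higher line, at a log2 difference of -3.01 that had been -6.99.

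Of the 673 reversed differences, the 10 with the largest value in their smaller condition were IGF2, PIK3AP1, PFKFB4, MGAM, PNP, PODXL, C1orf115, DENND1C, NRARP and BBC3. IGF2, the growth factor IGF-II, was at 1.95, 2.93 and 2.28 CPM in A549 and 0.353, 0.737 and 0.430 CPM in H1650 untreated. With SRSF2 it was at 2.29, 2.40 and 2.40 CPM in A549 and 9.72, 9.51 and 9.13 CPM in H1650. The A549 libraries lay in 1 range in both conditions while H1650 went from below to above it, a log2 difference of -2.23 untreated and 2.00 with SRSF2. PODXL, a sialomucin of the cell surface, was at 181, 158 and 166 CPM in H1650 and 80.5, 81 and 83.4 CPM in A549 SRSF2 libraries, against 29 and 59.7 CPM untreated. PNP, a purine salvage enzyme, was at 68.4, 59.6 and 63 against 29.7, 31.1 and 29.7 CPM, and BBC3, the pro-apoptotic protein PUMA, at 81.3, 69.3 and 76.4 against 36.6, 40.4 and 39.3 CPM. In 9 of these 10 genes H1650 became the higher line. PFKFB4, a regulator of glycolytic flux, was the exception, at 15.8, 23.6 and 22.2 CPM in H1650 and 54.8, 47.2 and 46.9 CPM in A549 SRSF2 libraries after untreated means of 29.4 and 12.8 CPM.

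The BCL2 family, which sets the threshold of mitochondrial apoptosis, held members on both sides. Of 16, 9 were higher in H1650 (40.5% of all genes) and 4 in A549 (43.7%). PMAIP1, the pro-apoptotic protein NOXA, was at 441, 412 and 356 CPM in H1650 and 24.6, 25.2 and 25.4 CPM in A549, a difference that widened from 1.06 to 4.01 ± 0.059. Its anti-apoptotic partner MCL1 opened, at 476, 462 and 480.4 against 277, 269 and 254 CPM. BCL2L1 (BCL-XL) reversed to 0.34 ± 0.037. The 4 members higher in A549 were the pro-apoptotic BAX, which widened to -1.78, and the anti-apoptotic BCL2 (-2.47), BCL2A1 (-4.09) and BCL2L2, of which the last 3 were named after their values were seen. Both kinds of member were thus found on either side.

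Of 46 G2/M and mitosis genes, 41 were higher in A549 (43.7% of all genes) and 5 in H1650 (40.5%) with SRSF2. The median log2 difference was -0.65 (-0.49 untreated), and the ratio went down for 26 (24% of all genes) and up for 7 (23.5%). The 7 became 4 without A549 SRSF2 replicate 3 or A549 untreated replicate 3 and 2 with plain library totals. TOP2A, the topoisomerase that untangles replicated chromosomes, was at 682, 683 and 653 CPM in A549 and 102, 99.4 and 129 CPM in H1650, widening from -1.65 to -2.60 ± 0.058. CENPF, a kinetochore protein, widened from -0.66 to -1.72 ± 0.050, and PLK1, a mitotic kinase, reversed from 0.10 to -0.55 ± 0.042. The untreated PLK1 difference did not pass the test with DESeq2 (0.080), median-ratio size factors (0.080) or plain library totals (0.065), where PLK1 would be opened. Of 40 DNA replication and E2F target genes, 17 were higher in H1650, near the share of all genes (40.5%), and 21 in A549 (43.7%). The ratio went up for 25 (23.5% of all genes) and down for 5 (24%). CDC6, a licensing factor of replication origins, reversed, at 158, 143 and 158 CPM in H1650 and 134, 130.4 and 122 CPM in A549 SRSF2 libraries, while PCNA, the sliding clamp, remained at -1.21 ± 0.040. E2F1 widened from 0.94 to 1.53 ± 0.046.

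Histone genes were higher in H1650 for 17 of 20 tested (40.5% of all genes), with a median log2 difference of 1.67 (0.79 untreated). H2BC12, a core histone H2B gene, was at 209, 227 and 208 CPM in H1650 and 46.2, 48.1 and 47.3 CPM in A549. H3-3B, which encodes the variant H3.3, reversed from -0.41 to 1.21 ± 0.044. Replication-dependent histone transcripts mostly lack a poly(A) tail, so libraries of polyadenylated RNA measure only a part of them.

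Cytosolic ribosomal protein genes were higher in A549 for 60 of 68 (43.7% of all genes), with a median log2 difference of -0.84 (-0.77 untreated). Of the 68, 35 remained (37.8% of all genes). The ratio went down for 26 of the 68 (24% of all genes), and for 43 with plain library totals. Reads of ribosomal protein genes can be shared with their processed pseudogenes. Proteasome subunits were higher in A549 for 15 of 26 (43.7% of all genes) and in H1650 for 10, near the share of all genes (40.5%). Their median was -0.19 (-0.43 untreated), with 10 narrowed (14.2% of all genes). Unfolded protein response genes were higher in H1650 for 19 of 29 (40.5% of all genes) and in A549 for 9 (43.7%). Within that list XBP1, whose spliced form drives the response, was at 689, 621 and 510.0 CPM in H1650 and 71.7, 62.7 and 70.8 CPM in A549, widening from 0.85 to 3.15 ± 0.067. The chaperone HSPA5 (BiP) widened from 0.21 to 0.91 ± 0.032, and DNAJB9 reversed, at 96.2, 85.3 and 77.6 against 33.6, 35.6 and 33.6 CPM.

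Few splicing genes differed by 1 or more on the log2 scale with SRSF2. Among 23 SR proteins and kinases 3 did so on the H1650 side (20.1% of all genes) and 1 on the A549 side (22.5%). On the A549 side, 1 of 38 core spliceosome genes and 3 of 37 other regulators did (22.5% of all genes), and none did on the H1650 side (20.1%). Of 23 SR proteins and their kinases other than SRSF2, 15 were higher in H1650 (40.5% of all genes) and 7 in A549 (43.7%). Their median log2 difference was 0.21 (0.33 untreated), and 7 ratios went up (23.5% of all genes) and 7 down (24%). SRSF1 was higher in A549, at 286, 291 and 284 against 126, 122 and 117 CPM, and widened from -0.84 to -1.24 ± 0.040. SRSF6 narrowed to 0.10 ± 0.037, which was -0.015 with plain library totals and did not pass the test without A549 SRSF2 replicate 3 (0.083) or H1650 SRSF2 replicate 3 (0.073). The kinases CLK1 and SRPK2, which phosphorylate SR proteins, widened on the H1650 side, to 0.98 ± 0.051 and 1.11 ± 0.043. Core spliceosome genes were at a median of -0.23 (38 tested) and other splicing regulators at -0.30 (37 tested). The regulator NOVA1 was at a mean of 13.5 CPM in A549 and without reads in H1650 SRSF2 libraries, at least 370-fold higher in A549.

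**Figure D3:**
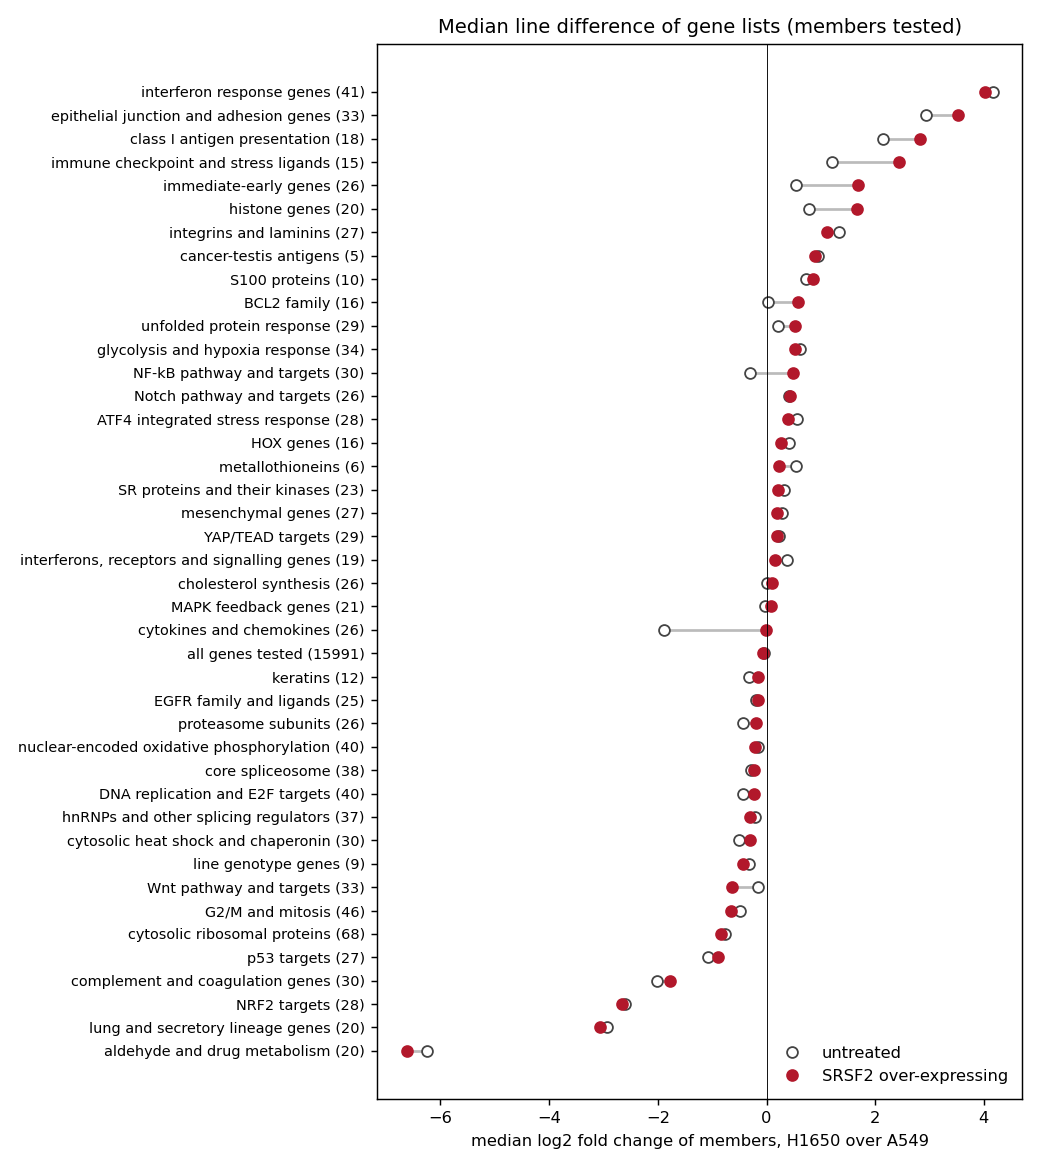
Median log2 of H1650 over A549 over the tested members of each list with at least 5 of them (numbers in brackets), untreated (open circles) and with SRSF2 (filled circles). Aldehyde and drug metabolism (-6.62) and lung lineage genes (-3.07) lie farthest to the A549 side and interferon response (4.02) and epithelial junction genes (3.53) farthest to the H1650 side in both conditions, while cytokines (-1.89 untreated, -0.01 with SRSF2) show a long line between the circles.

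Line differences also varied by chromosome. Copy number was not measured here, and its part in them was not tested. Among the SRSF2 libraries the median log2 difference was -0.80 over 258 genes of chromosome 13, -0.44 over 495 genes of chromosome X and -0.40 over 896 genes of chromosome 17. It was 0.40 over 392 genes of chromosome 22, 0.39 over 415 genes of chromosome 20 and 0.34 over 158 genes of chromosome 21. In untreated cells the same medians were -0.74, -0.46, -0.43, 0.46, 0.43 and 0.47, and the median change was between -0.08 and 0.07 on each chromosome shown.

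**Figure D4:**
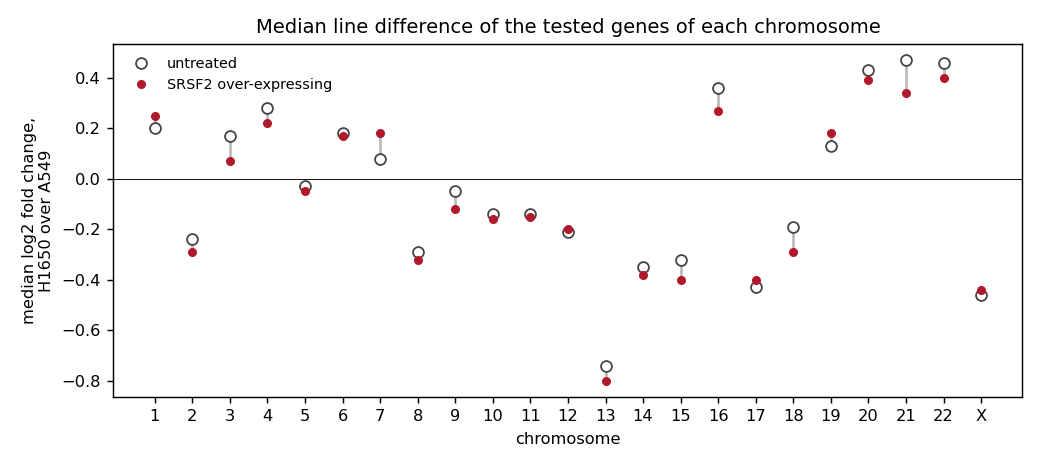
Median log2 of H1650 over A549 over the tested genes of each chromosome (Y not shown), untreated (open circles) and with SRSF2 (filled circles). Chromosome 13 is lowest in H1650 in both conditions (-0.74 and -0.80), and the circles of each chromosome lie close together.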

How the data were processed

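Polyadenylated RNA of A549 and H1650 cells, untreated or over-expressing SRSF2, was sequenced in 3 libraries per group. The authors deposited raw counts per gene. The submitters' processing notes list featureCounts 2.0.0, STAR 2.7.7a, fastp 0.20.1 and the build GRCh38. The annotation release, strandedness and the rule that kept genes in the table are not given in the sources used here. FPKM values were also deposited and were not used.

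The edgeR package (4.0.16, under R 4.3.3) was used. After its filterByExpr step 15991 of 16599 genes were tested, with TMM scaling. All 12 libraries entered 1 quasi-likelihood model holding 4 group means, which leaves 8 residual degrees of freedom. Benjamini-Hochberg adjustment covered all genes tested, and calls were made at an adjusted p under 0.05. Contrasts were H1650 minus A549 with SRSF2, the same untreated, and their difference. Classes follow from these 3 calls. SEs are the log2 difference over the square root of F and are given only where both groups have reads enough for them to exceed counting error. In simulated data with 15991 genes, a small set of well-counted genes was given line differences or changes, and all other genes had none. In that set 94% of 2-fold line differences and 92% of 2-fold changes were recovered, with 4.4% and 4.2% of all calls false. In the real data most genes differ and some have few counts, so these shares need not carry over.

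Named genes have at least 5 CPM in the higher group and are the largest differences per class and direction, or the smallest adjusted p in each of 46 gene lists. Lists are described by counts and medians, with no set test. Some genes that this rule names are not reported here. The lists and members were chosen with earlier results of these data known. Symbols were looked up in a table of gene names (16076 IDs) and otherwise in GENCODE 29 (63), coordinates from GENCODE 29, and promoters from RefSeq. Alternatives were DESeq2 1.42.0, limma 3.58.1 voom with sample quality weights, other scalings and filters, a stricter threshold, glmTreat, a replicate block, a fit of the 6 SRSF2 libraries alone and leaving out each library.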

Additional observations from a re-analysis of the deposited data

Results flagged for a closer look

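The line effect differed between untreated and SRSF2 over-expressing cells, by the interaction test, for 7601 of 15991 genes. The reversed genes named above passed this test by the definition of their class, so their values are a description. The log2 difference of H1650 over A549 went up by 4.23 for IGF2, 3.04 for PIK3AP1, 2.36 for MGAM, 2.23 for C1orf115, 2.12 for PNP, 2.10 for DENND1C, 2.08 for PODXL, 1.91 for NRARP and 1.80 for BBC3. For PFKFB4 the difference moved by -2.47. IGF2 and PIK3AP1 were under 10 CPM in all libraries, PIK3AP1 at 2.21, 1.53 and 2.24 CPM in A549 SRSF2 and 5.78, 6.19 and 6.85 CPM in H1650 SRSF2 libraries. A Dixon check of single outlying libraries was not run on groups of 3.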

How the results depend on the processing

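Over 22 alternatives, the 18 counts over all genes that were recomputed (calls of each test, by direction and past 1 on the log2 scale, and the 6 classes) stayed within 1.5 times their values, in 368 recomputed counts. The fit of the 6 SRSF2 libraries alone and glmTreat gave counts for the SRSF2 line difference and none for the change. Leaving out each library in turn gave 13155 to 13573 line differences with SRSF2 and 7149 to 7654 changes, and between 5983 and 6302 remained. Requiring a line difference beyond 0.5 on the log2 scale (glmTreat) left 9265, and a threshold of 0.01 left 6011 changes, 6632 remaining differences and 483 reversed ones. The replicate numbers were not taken as pairs, since residuals of libraries with the same number correlated at only -0.0272 to 0.0446 between groups. With the replicate block, 13448 line differences, 7589 changes and 6013 remaining differences were called, and the ANKRD1 difference with SRSF2 (0.17), the untreated H1-4 difference (0.93) and the KEAP1 change (-0.135) passed the test. Plain library totals turned SRSF6 to -0.015 and NFE2L2 to -0.000 with SRSF2, so their direction rests on the scaling. Of the counts over gene lists, 108 moved by more than 1.5 times and 3756 did not. Among values of named genes, 8535 stayed on their side of the threshold, 47 came to pass the test, 34 no longer did and 2 changed direction. Direction was compared only where the main fit or the alternative passed the test. Depth limits the A549 genes near 0 in H1650, whose folds are bounds. The groups of 3 limit small changes: 50% of 1.25-fold changes simulated in well-counted genes were recovered. The cause of these dependences was not tested.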

Other observations

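Of 30 tested complement and coagulation genes, many of which encode plasma proteins of liver origin, 19 were higher in A549 with SRSF2 (43.7% of all genes) and 9 in H1650 (40.5%). C3, the central complement component, was at 55, 56.4 and 63.1 CPM in A549 and 25.2, 24.2 and 28.1 CPM in H1650 SRSF2 libraries, where untreated H1650 had 10.8, 10 and 12.2 CPM. The log2 difference narrowed from -2.60 to -1.17 ± 0.064. CD55, which protects cells from complement, reversed, at 449, 438 and 405 CPM in H1650 and 155, 153 and 149.5 CPM in A549, from a log2 difference of -0.29 to 1.50 ± 0.041. PLAUR, the urokinase receptor, widened from 2.41 to 4.49 ± 0.051, with 1422, 1429.9 and 1300.1 CPM in H1650 and 58.7, 62.9 and 63.2 CPM in A549. SERPINA1, the gene of alpha-1 antitrypsin, was at 46.5, 56 and 58 against 0.450, 0.417 and 0.314 CPM, also on the H1650 side.

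Of 25 genes of the EGFR family, its ligands and other growth factor receptors, 10 were higher in H1650 (40.5% of all genes) and 14 in A549 (43.7%), the former at the share of all genes. The ligands EREG (epiregulin) and NRG1 (neuregulin) remained on the A549 side. EREG was at 258, 245 and 225 CPM in A549 and 0.996, 0.895 and 0.946 CPM in H1650, and NRG1 at 261, 241 and 238 against 3.15, 3.25 and 3.52 CPM. Neither gene's libraries overlapped, and their log2 differences were -8.00 and -6.21. The change of EREG (-0.43) was called without H1650 untreated replicate 1 (-0.69). The receptor ERBB2 narrowed on the H1650 side from 1.76 to 1.02 ± 0.044. MET, the receptor of hepatocyte growth factor, reversed to the A549 side, at 514, 500.1 and 489 CPM in A549 and 391, 361 and 359.7 CPM in H1650 SRSF2 libraries after 358 and 458 CPM untreated.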
